A study of Homo sapiens with 9 samples.

Results

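ZNF genes encode zinc finger proteins, in most of which repeated finger-like folds, each held by a zinc ion, read DNA. The 87 genes described here are the ZNF genes with signal in BT-549, a triple-negative breast cancer line with mesenchymal traits. They are the genes whose platform symbol is ZNF, a number and at most 1 further letter, taken at the brightest feature per gene, with a mean log2 signal of 5 or more over all 9 arrays. This kept 87 of 471 measured ZNF genes, and 87 of 14884 genes in all. The members were thus chosen by their mean level over all 9 arrays, which is given as a description only. Just inside the threshold lay ZNF362, ZNF71 and ZNF112, each at 5.00 or 5.01, and just outside it ZNF513 (4.98), ZNF354B (4.97) and ZNF251 (4.96).

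Cells were transfected with a miR-150-5p mimic, a synthetic copy of the mature microRNA, or with a non-specific negative control RNA, both at 50 nM with a lipid reagent. Mock cells received the reagent alone. All had a medium change at 24 h and were harvested at 72 h, and each group had 3 arrays. Whether the arrays of a group came from separate cultures is not said in the labels. The p-values therefore rest on the spread among these samples, and that spread may be technical. The mesenchymal genes VIM (8.76) and FN1 (8.76) and the surface protein gene CD44 (7.30) had high mean log2 signals, while the luminal genes ESR1, PGR, FOXA1 and EPCAM lay between 1.78 and 2.24. ALB and PECAM1, of liver and endothelium, lay at 1.93 and 2.19.

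Most ZNF genes carry a KRAB domain, which recruits the corepressor TRIM28 and with it repressive histone marks. Many of these proteins silence retrotransposons, as ZNF91 and ZNF93 do, and a large share of the family lies in clusters on chromosome 19. Other ZNF proteins act without a KRAB domain, in promoter activation, splicing, ribosome assembly or mitosis. A microRNA lowers messages that pair with its seed. Pairing with these genes was not analysed here, since no transcript sequence was used.

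Of the 87 members, 31 lie on chromosome 19 (35.6%), against 226 of all 471 measured ZNF genes (48.0%), by the RefSeq gene table of GRCh38.p14. The signal threshold thus kept 13.7% of the ZNF genes on chromosome 19 and 22.9% of the 245 elsewhere. It kept 27% of all genes. The other 56 members are spread over 17 chromosomes, and 2 members, ZNF271P and ZNF767P, are transcribed pseudogenes. The members' means ran from 5.00 to 8.21 with a median of 5.43. On all 9 arrays 51 members read 5 or more, and 21 had a mean below 5 in at least 1 of the 3 groups. Within groups the median SD of a member was 0.14 in mimic, 0.15 in negative control and 0.15 in mock arrays, against 0.12, 0.16 and 0.15 for all 4025 genes at the same threshold.

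Few ZNF genes passed the test, and most differences were small. Each difference is given on the log2 scale with its SE, as fitted by limma (n = 3 arrays in each group), and a gene passed at a Benjamini-Hochberg adjusted p under 0.05 over all 14884 genes. Against the negative control, 3 members rose in the mimic (ZNF43, ZNF586 and ZNF791) and 1 fell (ZNF25). Against mock, 2 rose (ZNF43 and ZNF138) and 2 fell (ZNF25 and ZNF462). In the negative control against mock, 1 fell (ZNF586) and 0 rose, with 2 above and 6 below mock at an unadjusted p under 0.05.

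**Figure D1:**
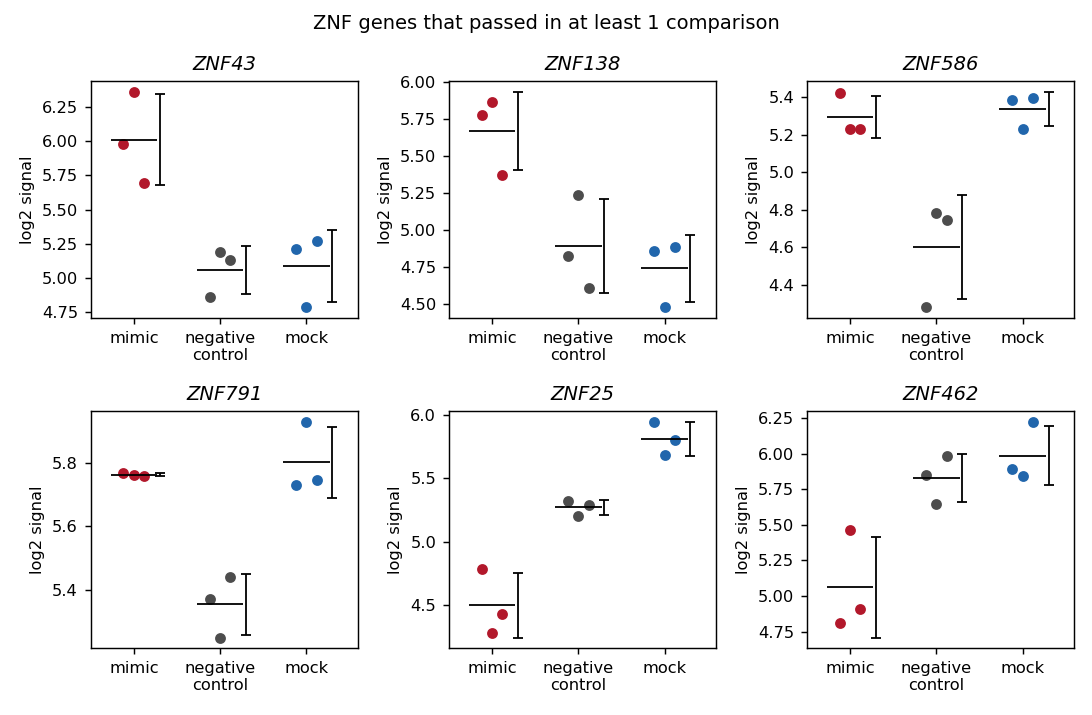
Log2 signal (vertical axes, each with its own range) of the 6 ZNF genes that passed in at least 1 comparison, on 3 mimic, 3 negative control and 3 mock arrays. Points are arrays, lines are means and bars are SD. ZNF43 and ZNF138 are highest on the mimic arrays, ZNF25 and ZNF462 lowest on them, and ZNF586 and ZNF791 are lowest on the negative control arrays.

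ZNF25, a KRAB zinc finger gene, had the largest difference of any member. It read 4.78, 4.28 and 4.43 on mimic arrays 1 to 3, 5.32, 5.20 and 5.29 on negative control arrays, and 5.95, 5.68 and 5.80 on mock arrays. The 3 groups did not overlap, with the mimic lowest and mock highest. The mimic mean of 4.50 lay below the signal threshold of 5, so ZNF25 is a member only through the control arrays. Its fall thus says nothing of the members as a set. Against mock it fell by 1.31 on the log2 scale in the mimic (2.49-fold, SE 0.13, adjusted p = 0.0011, limma). This call held without each of the 9 arrays in turn, with the adjusted p at most 0.0091 in limma. Against the negative control it fell by 0.77 (1.71-fold, SE 0.13, adjusted p = 0.013, limma). That call was lost when negative control 1, negative control 3 or mimic 3 was left out, with 0.058 the highest adjusted p. The negative control against mock stood at -0.54 ± 0.13, which did not pass (adjusted p = 0.12, limma).

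ZNF462, in which loss-of-function variants cause a developmental syndrome, read 4.81, 5.46 and 4.91 on mimic, 5.85, 5.65 and 5.98 on negative control, and 5.89, 5.84 and 6.22 on mock arrays. All mimic arrays lay below all others, with mimic 2 nearest to them. It fell by 0.93 on the log2 scale in the mimic against mock (1.90-fold, SE 0.18, adjusted p = 0.024, limma). Leaving out mock 1, mock 3, mimic 1 or mimic 3 ended the call, with 0.093 the highest adjusted p. Against the negative control it stood at -0.77 ± 0.18, which just missed the threshold (adjusted p = 0.051, limma). Negative control and mock arrays overlapped.

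ZNF43 and ZNF138, KRAB zinc finger genes on chromosomes 19 and 7, had the largest upward differences of any member, against either control. ZNF43 read 5.98, 6.36 and 5.70 on mimic arrays, 4.86, 5.19 and 5.14 on negative control arrays, and 5.21, 4.79 and 5.27 on mock arrays. The mimic arrays lay above the other 6, which overlapped. ZNF43 rose in the mimic by 0.95 ± 0.18 against the negative control (1.93-fold, adjusted p = 0.026, limma) and by 0.92 ± 0.18 against mock (1.90-fold, adjusted p = 0.028, limma). Leaving out negative control 1, negative control 3, mimic 1 or mimic 2 ended the first call (highest adjusted p 0.093), and leaving out mock 1, mock 2, mimic 1 or mimic 2 ended the other (highest adjusted p 0.092).

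ZNF138 read 5.78, 5.86 and 5.37 on mimic, 4.82, 5.24 and 4.61 on negative control, and 4.86, 4.48 and 4.89 on mock arrays. Its mimic arrays also lay above the other 6. Its means were 5.67 ± 0.26 in mimic, 4.89 ± 0.32 in negative control and 4.74 ± 0.23 in mock arrays (SD, n = 3 each), so it reached the signal threshold of 5 only through the mimic arrays. A gene admitted in this way is bound to stand high there, and its rise says nothing of the members as a set. It rose against mock by 0.93 ± 0.19 (1.91-fold, adjusted p = 0.029, limma). Leaving out mock 1, mock 2, negative control 1, mimic 1 or mimic 2 ended the call, with 0.11 the highest adjusted p. Against the negative control it stood at 0.78 ± 0.19, which did not pass (adjusted p = 0.061, limma).

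The promoters of ZNF43 and ZNF138 are shown because these genes lie on different chromosomes, were the members called upward against mock, and have closely related sequences. The 250 bases before the start site are given from RefSeq, build GRCh38.p14, 5′ to 3′ on the gene's strand: chr19:21836183-21836432 on the minus strand for ZNF43 and chr7:64794178-64794427 on the plus strand for ZNF138. The ZNF43 window lies within the RefSeq limits of the gene (21804946 to 21852065), so its start is not the gene's outermost one. Capitals mark the bases that are identical in the alignment of the pair, 206 of 250.
ZNF43: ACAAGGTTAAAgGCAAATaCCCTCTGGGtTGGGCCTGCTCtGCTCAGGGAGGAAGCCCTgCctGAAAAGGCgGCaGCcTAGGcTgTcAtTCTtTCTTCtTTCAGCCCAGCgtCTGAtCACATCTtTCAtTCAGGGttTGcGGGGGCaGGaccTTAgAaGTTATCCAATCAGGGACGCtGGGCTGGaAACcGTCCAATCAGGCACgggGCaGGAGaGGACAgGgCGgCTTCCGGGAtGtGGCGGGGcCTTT
ZNF138: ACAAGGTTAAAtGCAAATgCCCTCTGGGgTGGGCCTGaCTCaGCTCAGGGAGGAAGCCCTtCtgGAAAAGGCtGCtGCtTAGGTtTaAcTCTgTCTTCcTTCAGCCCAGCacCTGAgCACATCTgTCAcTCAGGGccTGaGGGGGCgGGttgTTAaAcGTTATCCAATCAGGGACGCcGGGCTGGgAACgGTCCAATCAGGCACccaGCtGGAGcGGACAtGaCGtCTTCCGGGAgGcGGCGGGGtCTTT
Both windows hold GGGCGG, the motif of SP1 and KLF factors, on one strand or the other. These matches lie at different places in the alignment, each on bases that differ between the pair. Both windows also hold CCGGAAG, the motif of ETS factors, at the same place and in identical bases.

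This likeness was looked at after the calls were known, so what follows is a description with no test. Over the whole 300 bases of RefSeq promoter (250 before and 50 after the start) the pair were 81% identical. Of the 395 ZNF genes with a promoter sequence, 75 of them members, 30 reached at least 70% identity with ZNF43, itself included. The rest had a median identity of 58.7% in this gapped alignment and reached 69.3%, so no gap in the values marks the 70% limit. The other members among the 30 were ZNF93 (81.3% identical), ZNF100 (80.3%) and ZNF254 (79.3%), all on chromosome 19.

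ZNF100 read 5.59, 5.36 and 5.24 on mimic, 5.15, 5.16 and 5.10 on negative control, and 5.06, 4.83 and 5.09 on mock arrays. The mimic arrays lay above the other 6, at 0.26 ± 0.11 against the negative control (adjusted p = 0.27) and 0.40 ± 0.11 against mock (adjusted p = 0.073), neither of which passed in limma. ZNF254 stood at 0.26 ± 0.11 and 0.33 ± 0.11 (adjusted p = 0.26 and 0.13, limma). ZNF93, which represses LINE-1 elements, stood at 0.16 ± 0.11 against the negative control and at -0.18 ± 0.11 against mock. ZNF100 is the nearest measured ZNF gene to ZNF43 on one side. On its other side, ZNF208, below the threshold, stood at 0.07 ± 0.13 against the negative control.

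Beyond ZNF43 and ZNF138, 28 ZNF genes had such a promoter, 3 of them members and 25 below the signal threshold. Of the 28, 24 stood above 0 in the mimic against the negative control (85.7%, median 0.28), against 64.1% and a median of 0.06 for the 365 other ZNF genes with a promoter. Against mock 22 of 28 stood above 0 (78.6%, median 0.23), against 56.2% and a median of 0.02. The negative control stood above mock for 14 of 28, with a median of 0.02. By limma 1 of the 28 rose in the negative control against mock and 0 fell. At an unadjusted p under 0.05 there were 1 above and 3 below mock. Of the 365 others, 0 rose and 1 fell in that comparison. Of the 28, 0 passed against the negative control (10 at an unadjusted p under 0.05, all above 0) and 3 rose against mock by limma. Of the 365, 5 rose and 2 fell against the negative control (39 above and 9 below 0 at an unadjusted p under 0.05), and 2 rose and 3 fell against mock. The 3 that rose among the 28 are ZNF91 (0.92 ± 0.22, adjusted p = 0.048), which represses SVA retrotransposons, ZNF431 (0.90 ± 0.20, adjusted p = 0.039) and ZNF695 (0.87 ± 0.13, adjusted p = 0.0071). ZNF107, next to ZNF138 on chromosome 7 and with a mean of 4.13, had the largest difference of the group against the negative control. It stood there at 1.28 ± 0.30 (adjusted p = 0.051, limma). Against mock it stood at 0.77 ± 0.30 (adjusted p = 0.21, limma), and the negative control against mock at -0.51 ± 0.30. These non-members were named after their values were seen. Genes of this group have related sequences. How probes that match several of them were treated is not given in the labels, and whether their values share probes was not tested.

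**Figure D2:**
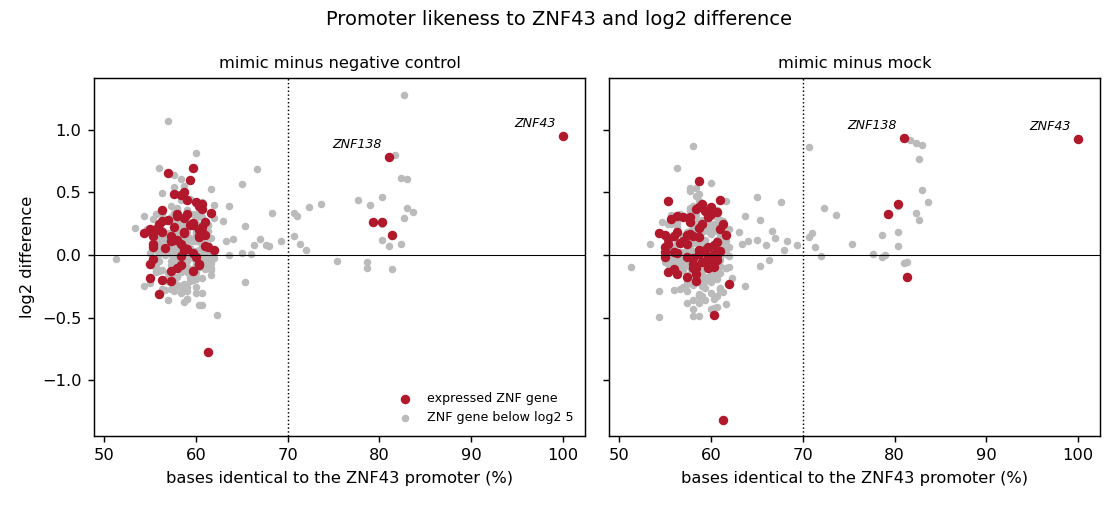
Log2 difference (vertical axes) of 395 ZNF genes in the mimic minus negative control (left) and mimic minus mock (right), against the percentage of 300 promoter bases identical to ZNF43 in a pairwise alignment (horizontal axes). Red points are expressed ZNF genes, grey points ZNF genes below log2 5, and the dotted line marks 70%. Right of the line most points lie above 0 in both panels, while the main cloud near 59% is spread around 0.

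ZNF586 and ZNF791, KRAB zinc finger genes of chromosome 19 that lie far apart on it, had another pattern, with the negative control lowest and mimic and mock alike. ZNF586 read 5.42, 5.23 and 5.23 on mimic, 4.28, 4.78 and 4.74 on negative control, and 5.39, 5.23 and 5.39 on mock arrays. The negative control arrays lay below all the others, and mimic and mock overlapped. The negative control mean of 4.60 lay below the signal threshold of 5. ZNF586 is thus a member only through the mimic and mock arrays, and its low negative control says nothing of the members as a set. ZNF586 rose in the mimic against the negative control by 0.69 ± 0.13 (1.62-fold, adjusted p = 0.026, limma). Leaving out negative control 3 or any mimic array ended this call, with 0.10 the highest adjusted p. It stood at -0.04 ± 0.13 in the mimic against mock.

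ZNF586 also fell in the negative control against mock, by 0.74 on the log2 scale (1.66-fold, SE 0.13, adjusted p = 0.048, limma). The call was lost whichever of the 9 arrays was left out, with adjusted p between 0.069 and 0.19. It was also lost with the replicate number as a block, at adjusted p = 0.12 on all 9 arrays and 0.17 on the negative control and mock arrays alone.

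ZNF791 read 5.77, 5.76 and 5.76 on mimic, 5.37, 5.25 and 5.44 on negative control, and 5.73, 5.93 and 5.75 on mock arrays. Again only the negative control arrays stood apart, below the rest. ZNF791 rose in the mimic against the negative control by 0.41 ± 0.09 (1.33-fold, adjusted p = 0.036, limma). Leaving out any array other than mock 2 or mock 3 ended the call, with 0.11 the highest adjusted p. In the negative control against mock it stood at -0.45 ± 0.09 (adjusted p = 0.058), and in the mimic against mock at -0.04 ± 0.09.

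For contrast with the pair above, the 250 bases before the start sites of ZNF586 (chr19:57769426-57769675, plus strand) and ZNF791 (chr19:12610670-12610919, plus strand) are given with those of ZNF25 (chr10:37976648-37976897, minus strand), from the same build. Capitals mark, on either strand, GGGCGG of SP1 and KLF factors, CCGGAAG of ETS factors or ATGGCGG of YY1.
ZNF586: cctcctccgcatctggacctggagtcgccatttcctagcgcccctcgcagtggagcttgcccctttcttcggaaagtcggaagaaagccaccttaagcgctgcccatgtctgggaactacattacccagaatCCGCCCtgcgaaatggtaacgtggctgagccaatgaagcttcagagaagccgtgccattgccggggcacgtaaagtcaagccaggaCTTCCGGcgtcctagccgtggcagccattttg
ZNF791: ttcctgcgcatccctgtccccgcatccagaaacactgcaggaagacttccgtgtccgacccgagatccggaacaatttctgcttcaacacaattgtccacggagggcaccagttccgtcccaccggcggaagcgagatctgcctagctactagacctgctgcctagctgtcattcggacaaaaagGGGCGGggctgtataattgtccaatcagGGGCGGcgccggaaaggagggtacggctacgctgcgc
ZNF25: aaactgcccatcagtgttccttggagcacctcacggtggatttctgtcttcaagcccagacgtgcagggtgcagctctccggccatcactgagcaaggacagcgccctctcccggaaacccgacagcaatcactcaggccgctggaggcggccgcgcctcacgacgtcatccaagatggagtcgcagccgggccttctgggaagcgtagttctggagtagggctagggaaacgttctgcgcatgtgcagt
ZNF586 has a match to GGGCGG and to CCGGAAG, ZNF791 has GGGCGG, and the ZNF25 window holds none of the letters searched. Among the 75 member promoters, over 300 bases and both strands, GGGCGG was found in 70.7%, CCGGAAG in 30.7% and ATGGCGG in 16%. The shares were 73.3%, 21.9% and 13% for the 3305 promoters of genes at the same signal threshold, and 44.5%, 10.6% and 5.68% for all 27305 promoters. The 320 promoters of ZNF genes below the threshold held them in 60.3%, 40.3% and 7.5%, so CCGGAAG was more frequent there than in the members. The longer palindromic motif of NRF1 was found in 4% of member promoters, against 3.33% and 1.37%. The median G and C content was 63% in the members, 60.8% in the 320 ZNF promoters below the threshold and 65.7% at the same signal threshold.

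None of the nearest measured ZNF genes on either side of the 6 genes that passed did so itself in any of the 3 comparisons. Of these neighbours only ZNF248 and ZNF100 are members. Among ZNF genes below the threshold 1.56%, 2.08% and 0.26% passed, and among members 4.60%, 4.60% and 1.15%. With so few neighbours, the absence of a pass thus says little. For ZNF25 the neighbours lie on chromosome 10. ZNF248, a member, stood at 0.08 ± 0.21 in the mimic against the negative control and -0.21 ± 0.21 against mock. ZNF33A stood at 0.15 ± 0.19 and 0.21 ± 0.19. ZNF248's other, dimmer feature (mean log2 signal 3.39) gave -0.28 and -0.75, and -0.47 in the negative control against mock. These have the same signs as ZNF25. Both neighbours of ZNF462 stood above 0 in the mimic against mock, ZNF189 at 0.19 ± 0.21 and ZNF483 at 0.34 ± 0.13 (adjusted p = 0.21, limma), where ZNF462 fell. For ZNF586, ZNF776 stood at 0.12 ± 0.12 in the mimic against the negative control and -0.12 ± 0.12 in the negative control against mock, and ZNF552 at -0.17 ± 0.15 and 0.27 ± 0.15. ZNF490, beside ZNF791, stood below mock in the negative control too, at -0.51 ± 0.12, which did not pass (adjusted p = 0.13, limma), beside -0.45 for ZNF791. Unlike ZNF791 it was about as low in the mimic, at -0.49 ± 0.12 against mock (adjusted p = 0.063) and 0.02 ± 0.12 against the negative control. ZNF333, on the other side, stood at -0.13 ± 0.09 in the mimic against the negative control and 0.02 ± 0.09 in the negative control against mock.

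**Figure D3:**
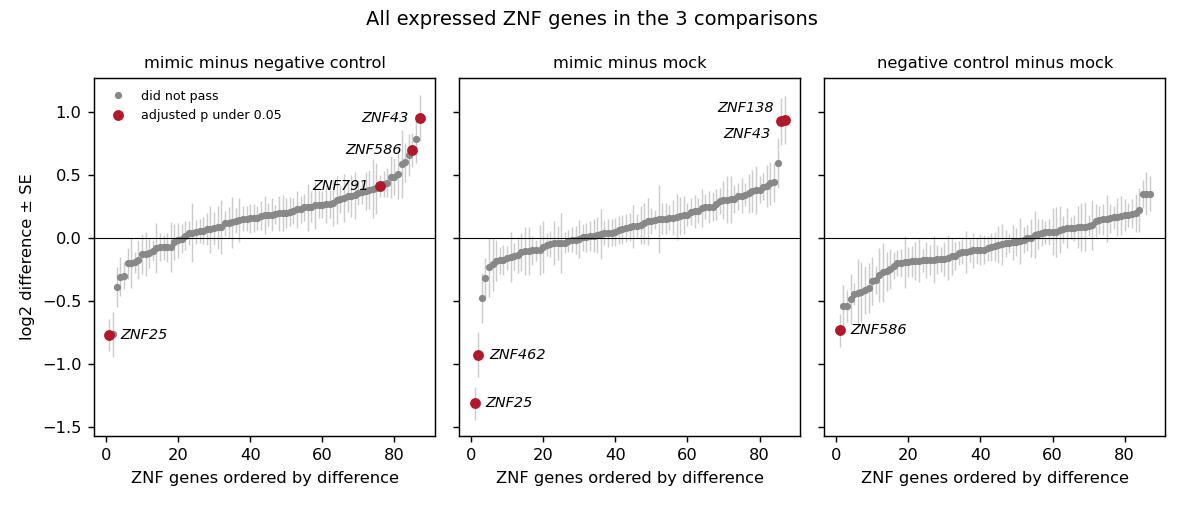
Log2 difference ± SE (vertical axis) of all 87 expressed ZNF genes, ordered from lowest to highest in each comparison (horizontal axes). Red points passed at an adjusted p under 0.05 and are named, grey points did not. The curve crosses 0 early in the mimic minus negative control, where 66 genes stand above 0, and late in the negative control minus mock, where 34 do.

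Set against all genes, the number of members that passed was not large. In the mimic against the negative control 3 rose and 1 fell, where 1.76% of all 14884 genes rose and 1.42% fell. In the mimic against mock 2 rose and 2 fell, where 2.28% of all genes rose and 1.62% fell. In the negative control against mock 0 rose and 1 fell, against 0.168% and 0.477% of all genes. Among the 4025 genes at the same signal threshold, 7.53%, 9.64% and 1.59% passed in these comparisons, and among the members 4.60%, 4.60% and 1.15%. At an unadjusted p under 0.05 there were 26 members (29.9%) in the mimic against the negative control, where 16% of all genes and 31.2% of genes at the threshold lay under it. There were 19 (21.8%) in the mimic against mock, against 17.5% of all genes and 34.6% at the threshold, and 8 (9.2%) in the negative control against mock, against 11% and 20%.

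Small differences of the members nonetheless leaned upward in the mimic against the negative control. There 66 members stood above 0 and 21 below, with a median of 0.18, against -0.004 over all genes and 0.08 over genes at the same threshold. The members above 0 were 75.9%, against 62.7% of genes at the threshold and 48.7% of all genes. The mimic arrays lay wholly above the negative control arrays for 26 members (29.9%) and wholly below for 6 (6.90%). Over all genes these shares were 10.3% and 8.3%, and at the threshold 22.8% and 10.9%. Some members owe their place to the mimic arrays alone. As for ZNF138, both control means lay below 5 for ZNF496, ZNF362 and ZNF250, and each of these stood above 0. The lean without such members was not tested. Genes at the same threshold were chosen by the same rule on signal. A second quantile normalization lowered the members' median to 0.08, with 55 above 0 and 32 below, and the median at the threshold to -0.005.

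In the mimic against mock 57 members stood above 0 and 30 below, with a median of 0.08, against 0.10 at the same threshold and 0.0003 over all genes. The members above 0 were 65.5%, close to the 64.9% at the threshold, against 50.2% of all genes. After a second quantile normalization 45 stood above 0 and 42 below, with a median of 0.008. Arrays lay apart upward for 16 members (18.4%) and downward for 4 (4.60%), against 11.7% and 8.52% of all genes. At the threshold it was 26.1% and 11.5%. The median was 0.04 without mock 2.

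For the negative control against mock, 34 stood above 0 and 53 below, with a median of -0.07, against 0.02 at the threshold. The members above 0 were 39.1%, against 54.0% at the threshold and 52.2% of all genes. The median was -0.12 without mock 2, -0.05 without mock 3 and -0.04 without negative control 2. Arrays lay apart upward for 3 members and downward for 10 (11.5%), against 6.21% and 5.78% of all genes. At the threshold it was 9.81% and 9.39%.

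The ZNF mean of each array carries this lean. The 87 members averaged 5.78, 5.78 and 5.73 on mimic arrays 1 to 3, 5.60, 5.58 and 5.65 on negative control arrays, and 5.71, 5.59 and 5.75 on mock arrays. The mimic and negative control arrays did not overlap, and mock spanned most of the range, with mock 2 near the negative control. The mean of all 4025 genes at the threshold was 6.50, 6.48 and 6.43 on mimic, 6.39, 6.41 and 6.40 on negative control, and 6.38, 6.33 and 6.45 on mock arrays. Within every group, the array lowest in ZNF genes was the one highest in 23 snoRNAs and scaRNAs, small nuclear guide RNAs without a poly(A) tail. Their mean was highest on mimic 3 at 6.75, negative control 2 at 6.83 and mock 2 at 6.78, and the other 6 arrays lay between 5.62 and 6.43. Without negative control 2 and mock 2 the members' medians were 0.14, 0.04 and -0.09 in the 3 comparisons. The part of this difference between arrays in the results was not tested further.

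**Figure D4:**
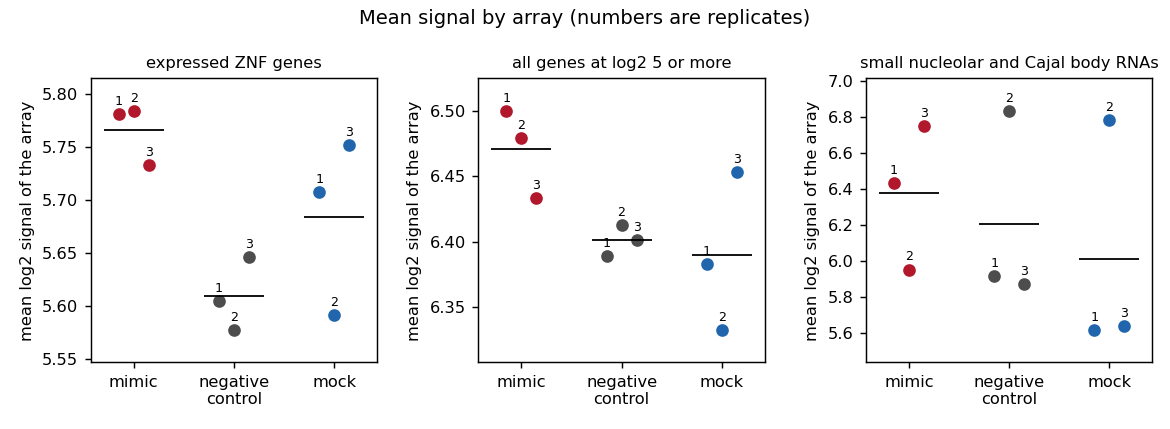
Mean log2 signal per array (vertical axes, each with its own range) of the 87 expressed ZNF genes, of the 4025 genes at log2 5 or more, and of 23 snoRNAs and scaRNAs. Points are arrays labelled with their replicate number and lines are group means. The ZNF means of the 3 mimic arrays lie above those of the 3 negative control arrays, and replicate 2 of negative control and mock is lowest for ZNF genes and highest for snoRNAs and scaRNAs.

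Of the members, 10 set all 3 mimic arrays above all 6 control arrays, and 3 set them below. Those above were ZNF43, ZNF138 and ZNF100, with ZNF266, ZNF384, ZNF512B, ZNF593, ZNF652, ZNF770 and ZNF830, and those below were ZNF25, ZNF462 and ZNF395. Over all genes 5.76% lay above and 3.79% below, and of the members 11.5% and 3.45%, against 14.2% and 5.79% at the same signal threshold. The negative control arrays lay below the other 6 for 5 members, ZNF586, ZNF791, ZNF8, ZNF638 and ZNF800, and above for ZNF271P, against 2.41% and 2.29% of all genes. At the same signal threshold the shares were 5.02% and 2.98%, against 5.75% and 1.15% of the members. Members in these groups other than those of the naming rule were named after their values were seen.

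Some members stood far from 0 without passing. In the mimic against the negative control ZNF451, a SUMO ligase, stood at 0.65 ± 0.17 (adjusted p = 0.071) and its other feature at 0.35. ZNF451 read 6.21, 6.33 and 6.09 on mimic, 5.23, 5.85 and 5.59 on negative control, and 6.16, 5.83 and 6.30 on mock arrays. Like ZNF586 it was lowest in the negative control, at -0.54 ± 0.17 against mock (adjusted p = 0.24). ZNF121 stood at 0.60 ± 0.16 (adjusted p = 0.078), with 8.09, 8.33 and 8.16 on mimic arrays above 7.81, 7.49 and 7.47 on negative control arrays.

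Downward, ZNF395, which is induced by low oxygen, stood at -0.39 ± 0.16 against the negative control and -0.32 ± 0.16 against mock (adjusted p = 0.26 and 0.35). ZNF883 stood at -0.31 ± 0.15 against the negative control. Against mock, ZNF460 stood at -0.48 ± 0.20, ZNF440 at -0.23 ± 0.23, ZNF770 at 0.59 ± 0.20, ZNF35 at 0.44 ± 0.15 and ZNF584 at 0.43 ± 0.17. None of these 5 passed in limma. ZNF770's other, dimmer feature gave -0.06.

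ZNF12 stood at -0.49 ± 0.20 in the negative control against mock. The highest were ZNF580 (0.35 ± 0.14), ZNF584 (0.35 ± 0.17) and the pseudogene ZNF271P (0.35 ± 0.11), whose negative control arrays at 5.69, 6.05 and 5.96 lay above 5.56, 5.43 and 5.67 on mock arrays. The lowest adjusted p of these 4 was 0.25.

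Members with known roles in breast cancer were 2 of 10 measured. ZNF217, an oncogene amplified in breast tumours that acts with corepressor complexes, read 7.48, 7.51 and 7.24 on mimic, 7.34, 7.03 and 7.25 on negative control, and 7.39, 7.22 and 7.44 on mock arrays. The groups overlapped, and the mimic stood at 0.21 ± 0.11 against the negative control (adjusted p = 0.43, limma). ZNF652, a repressor that acts with CBFA2T3, read 5.27, 5.70 and 5.29 on mimic, 4.97, 4.66 and 5.17 on negative control, and 5.02, 5.17 and 5.17 on mock arrays. Its mimic arrays lay above the rest, at 0.49 ± 0.15 against the negative control (adjusted p = 0.13, limma) and 0.30 ± 0.15 against mock (adjusted p = 0.35).

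Of 18 ZNF genes listed for transcription, chromatin and splicing, 13 were members, and 0 passed in any comparison (2, 3 and 1 at an unadjusted p under 0.05). At the same signal threshold 7.53%, 9.64% and 1.59% of genes passed, so 0 of 13 says little. There 31.2%, 34.6% and 20% of genes had such an unadjusted p. In the mimic against the negative control the 13 members ran from -0.20 to 0.65 with a median of 0.15. ZNF512B stood at 0.36 ± 0.10 (adjusted p = 0.099) and 0.24 ± 0.10 against mock. ZNF326, of the DBIRD complex that links transcription to splicing, stood at 0.18 ± 0.09, and at 0.34 ± 0.09 against mock (adjusted p = 0.069). ZNF827, which recruits the NuRD complex to telomeres, stood at 0.39 ± 0.24 against the negative control.

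ZNF638, which helps the HUSH complex silence retroviral DNA, stood at 0.15 ± 0.10, with 6.74, 6.62 and 6.67 on mimic arrays above 6.50, 6.57 and 6.52 on negative control arrays. ZNF644, a partner of the histone methyltransferases EHMT1 and EHMT2, stood at 0.15 ± 0.10. ZNF532 (0.19 ± 0.14) and ZNF592 (-0.20 ± 0.20), which act together with ZMYND8, differed in sign. ZNF292 stood at 0.20 ± 0.14. ZNF148 (0.04 ± 0.10), ZNF281 (0.06 ± 0.11) and ZNF24 (0.07 ± 0.13) stood near 0 and turned below it after a second quantile normalization. ZNF146, a protein made almost wholly of zinc fingers, stood at -0.10 ± 0.09.

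Of 7 ZNF genes listed for ribosomes and RNA, 5 were members and 0 passed (2, 1 and 0 at an unadjusted p under 0.05). Beside the shares at the signal threshold given above, 0 of 5 says little. ZNF593, whose yeast counterpart Bud20 takes part in the export of large ribosomal subunits, read 5.71, 5.73 and 5.60 on mimic, 5.40, 5.39 and 4.80 on negative control, and 5.28, 5.54 and 5.11 on mock arrays. Its mimic arrays lay above all others, at 0.48 ± 0.17 and 0.37 ± 0.17 (adjusted p = 0.19 and 0.29, limma). ZNF622, whose yeast counterpart Rei1 acts in maturation of the same subunit, stood at 0.33 ± 0.12 (adjusted p = 0.22) and 0.15 ± 0.12. ZNF346, which binds double-stranded RNA, stood at 0.30 ± 0.19, ZNF106 at 0.21 ± 0.10 and the nucleolar protein gene ZNF330 at -0.01 ± 0.11 against the negative control. ZNF207 (BuGZ), which binds BUB3 at kinetochores in mitosis, read 8.21, 8.04 and 8.09 on mimic, 8.15, 8.14 and 7.90 on negative control, and 8.14, 8.21 and 8.15 on mock arrays. The groups overlapped, with the mimic at 0.05 ± 0.09 against the negative control.

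A broad list of corepressor, DNA and histone methylation, heterochromatin and SUMO genes was set beside the members. Of 33 measured genes of this list, 2 rose and 0 fell in the mimic against the negative control, and 6 rose and 0 fell against mock. These are 6.06% and 18.2% of the list. Of all genes 3.18% and 3.9% passed, and of genes at the signal threshold 7.53% and 9.64%. The list was not filtered by signal, and SUV39H1 (4.54), DAXX (4.32) and CHAMP1 (4.48) lay below the threshold. Between the negative control and mock 0 passed in limma (1 above and 2 below mock at an unadjusted p under 0.05). DNMT1, the maintenance DNA methyltransferase, rose by 0.53 ± 0.09 against the negative control and 0.39 ± 0.09 against mock (adjusted p = 0.016 and 0.046, limma). UHRF1, which brings DNMT1 to replicated DNA, rose by 0.45 ± 0.09 and 0.56 ± 0.09 (adjusted p = 0.025 and 0.0090, limma). Against mock the histone methyltransferase genes SUV39H1 (0.42 ± 0.09) and SUV39H2 (0.60 ± 0.12), the histone chaperone gene DAXX (0.47 ± 0.10) and CHAMP1 (0.44 ± 0.10), of chromosome alignment, rose as well.

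None of the 8 measured genes listed with TRIM28 and the HUSH complex passed in limma, with 1, 2 and 0 at an unadjusted p under 0.05 in the 3 comparisons. These 8 include CBX1, CBX3, CBX5 and ATF7IP, while SETDB1 and TASOR, also on the list, had no value here. TRIM28 itself stood at 0.37 ± 0.11 against the negative control (adjusted p = 0.12) and 0.43 ± 0.11 against mock (adjusted p = 0.064). Of 10 NuRD and deacetylase genes 0 passed, with 4, 2 and 2 at an unadjusted p under 0.05. Among them CHD3 stood at -0.64 ± 0.20 against the negative control. Over all genes 3.18%, 3.9% and 0.645% passed, and at the signal threshold 7.53%, 9.64% and 1.59%. Beside these shares, 0 in lists this short says little. The 2 SUMO genes measured, SUMO2 and SUMO3, stood between -0.06 and 0.03 in the 3 comparisons. Median differences of the 33 were 0.20, 0.05 and 0.02, against 0.18, 0.08 and -0.07 for the 87 ZNF genes.

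The related zinc finger families ZBTB, ZKSCAN and ZFP had 19 genes at the signal threshold, and no ZSCAN gene reached it. None passed in limma in any comparison, with 4, 5 and 4 at an unadjusted p under 0.05. At the same signal threshold 7.53%, 9.64% and 1.59% of genes passed, so 0 of 19 says little. There 31.2%, 34.6% and 20% of genes had such an unadjusted p. The medians of the 19 were 0.09 in the mimic against the negative control, 0.05 in the mimic against mock and -0.05 in the negative control against mock. Among the 384 ZNF genes below the threshold, 4 rose and 2 fell, 6 rose and 2 fell, and 1 rose and 0 fell in the same comparisons, with medians of 0.05, 0.02 and -0.02. These are 1.56%, 2.08% and 0.26% of them, against 3.18%, 3.9% and 0.645% of all genes.

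On chromosome 19, 3 of 31 members rose and 0 fell in the mimic against the negative control, with a median of 0.18, and of the 56 members elsewhere 0 rose and 1 fell, with a median of 0.17. Against mock 1 of the 31 rose and 0 fell, and of the 56 elsewhere 1 rose and 2 fell, with medians of 0.10 and 0.08. Of 221 chromosome 19 genes at the threshold outside the family, 13 rose and 6 fell against the negative control (8.6%, median 0.08), against 9.68% of the 31. Against mock 18 of the 221 rose and 3 fell, with a median of 0.18. The difference between these positions was not tested. ZNF586, among the 3 that rose on chromosome 19, reached the threshold only through the mimic and mock arrays.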

How the data were processed

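Total RNA of 9 BT-549 samples was read on Affymetrix Human Gene 2.0 ST arrays. The deposited values are log2 signals per feature made by the authors with RMA, per the submitters' processing notes; RMA corrects background, normalizes between arrays and sums probes, and neither its version nor its array definition is given in the labels. Of 53617 features, 16098 had 1 symbol in the platform table, and the brightest feature of each gene left 14884 genes, all matched by ID to RefSeq (GRCh38.p14). The table was fitted whole with limma 3.58.1 in R 4.3.3 (lmFit, eBayes, 1 mean per group, 9.60 total degrees of freedom), with two-sided p-values adjusted by Benjamini and Hochberg over all genes. The number of arrays limits the precision. The fit was tested on simulated data.

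Promoters came from RefSeq, with the outermost start per gene among the promoter sequences used, and were aligned globally with Biopython 1.88. For ZNF43, to which all were aligned, this start lies inside the gene's RefSeq limits. Named members are the changed ones (up to 10 each way per comparison), the 3 largest that did not pass each way, those at the threshold and those on role lists. The members and lists were chosen with earlier results of these data known. Deviations from the group means correlated across genes between negative control and mock arrays that share a number (r = 0.15, 0.23 and 0.15). Negative control and mock arrays of unlike number lay between -0.16 and 0.022. A pairing is not stated in the labels and was not tested. For the mimic, same-number correlations lay between -0.29 and -0.054. Mimic arrays of unlike number reached 0.24 (mimic 1 with negative control 2), so values this high need not mean a pairing. A planned grouping by KRAB domain and finger count was not made, because no protein sequence was used here. Alternatives covered normalization, filters, feature choice, array weights, variance model, arrays fitted, block, thresholds, membership and left-out arrays. The comparison by normalization at the same signal threshold, the joint omission of 2 arrays, the promoter alignment and the block on 6 arrays were added after seeing the data.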

Additional observations from a re-analysis of the deposited data

How the results depend on the processing

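Calls were few, and their number moved with the settings. The number of members changed was 4 (mimic against negative control), 4 (mimic against mock) and 1 (negative control against mock). Leaving out 1 array gave 0 to 6, 1 to 4 and 0 to 1. The first count fell to 0 without negative control 3, to 1 without negative control 1, mimic 1 or mimic 3 and to 2 without mimic 2, and the next fell to 1 without mock 1 or mimic 1 and to 2 without mimic 2. Testing only genes at log2 5 or more, which adjusts over fewer genes, gave 10, 8 and 3. Only genes at or above the median signal gave 8 in the first comparison, and array weights gave 9. With the replicate block the counts were 1, 1 and 0, and 0 for the last on the negative control and mock arrays alone. With only the 6 arrays compared they were 1, 2 and 0. An adjusted p under 0.01 left 0, 1 and 0. Membership at log2 4 or more gave 8 and 8, and at 6 or more 0, 0 and 0. The last count was also 0 with centring on array medians, with a trended robust variance, and without mock 2 and negative control 2 together.

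The median difference of the members was 0.18, 0.08 and -0.07. It ranged from 0.14 to 0.20, 0.04 to 0.11 and -0.12 to -0.04 without 1 array. A second quantile normalization gave 0.078 and 0.0079 in the first and second. Membership at log2 4 or more gave 0.14 in the first, as did leaving out mock 2 and negative control 2 together (0.14).

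Direction turned only for values that did not pass; the cause was not tested. After a second quantile normalization ZNF148 was at -0.041, ZNF281 at -0.028, ZNF24 at -0.024 and ZNF207 at -0.0099 in the mimic against the negative control. In that comparison ZNF330 was at 0.012 with centring, at 0.038 with array weights and at 0.088 without mock 2 and negative control 2 together. Leaving out the same pair gave ZNF440 0.022 and ZNF791 0.025 in the mimic against mock, and ZNF138 -0.16 in the negative control against mock. With 1 array left out, the ranges that crossed 0 in the mimic against the negative control were -0.0043 to 0.097 for ZNF148, -0.0043 to 0.11 for ZNF281, -0.019 to 0.14 for ZNF24, -0.036 to 0.0897 for ZNF207 and -0.092 to 0.088 for ZNF330. In the mimic against mock they were -0.41 to 0.022 for ZNF440 and -0.075 to 0.025 for ZNF791, and in the negative control against mock -0.023 to 0.29 for ZNF138 and -0.18 to 0.073 for ZNF43.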
